A study of Mus musculus with 4 samples.

Results

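The genes described here are 10 enzymes that write or erase methylation of histone H3 at lysine 9 (H3K9), in early mouse blastocysts made by somatic cell nuclear transfer (SCNT) or by in vitro fertilization (IVF). They are the erasers Kdm4a, Kdm4b, Kdm4c, Kdm4d, Kdm3a and Kdm3b and the writers Suv39h1, Suv39h2, Setdb1 and Ehmt2. Each was taken by its exact symbol, and all 10 were present once among the 23235 gene symbols of every library. Each group had 2 libraries, and each library held the RNA of 6 embryos lysed together 96 hours after activation (SCNT) or fertilization (IVF). The SCNT embryos carried nuclei of mouse embryonic fibroblasts heterozygous for an Xist knockout. Those fibroblasts came from Xist knockout 129S1/SvImj mothers and CAST/EiJ fathers, and the recipient oocytes came from B6D2F1/J (BDF1) mice. For IVF, Xist knockout oocytes (129S1/Svj) were fertilized by wild-type CAST/EiJ sperm, so both groups carried the Xist knockout on the maternal 129S1 side, while only the SCNT embryos had B6D2F1/J oocyte cytoplasm. The columns of the SCNT libraries also carry the name kdm4d, which is a gene of the set. The labels do not say whether these embryos received Kdm4d.

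Methylation of H3K9 marks silent chromatin: the trimethylated form is typical of repeats and heterochromatin, the dimethylated form of silenced genes. Suv39h1, Suv39h2 and Setdb1 are known for making the trimethylated form and Ehmt2 (also called G9a) the dimethylated form. Enzymes of the Kdm4 family remove the trimethyl mark, and Kdm3a and Kdm3b remove the lower methylation states. In nuclear transfer, H3K9 trimethylation brought in by the donor nucleus is known as a barrier to reprogramming, and injected Kdm4d mRNA is known to lower it and to improve the development of cloned mouse embryos.

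Levels are given in FPKM, a fragment count scaled for transcript length and library size, which allows levels of different genes to be set side by side. The unit is inferred. FPKM summed to between 933167 and 985197 per library, and between 10802 and 10923 genes reached 1 FPKM. The libraries differed by their replicate number as well as by group: symbols listed at 0 numbered 6505 (SCNT) and 6527 (IVF) in the libraries numbered 1, against 5212 (SCNT) and 5716 (IVF) in those numbered 2. Xist had 4.13 and 3.33 FPKM in SCNT, against 1.09 and 13.9 FPKM in IVF. Those values do not check the genotype, since the removed part of the gene is not given. Whether the 2 libraries of a group were made from different matings or sessions is not stated, so each p-value covers the library-to-library spread alone, part of which may be technical.

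The 10 genes spanned from near 0 to about 46.3 FPKM. Ehmt2 stood highest in every library, with 27.2 to 46.3 FPKM over the 4 libraries, and lay between the percentiles 86.6 and 90.6 of all symbols. Kdm3b came next in every library with 16.3 to 20.7 FPKM, a range apart from those of its neighbours in the order. Setdb1 (10.03 to 15.0 FPKM) and Suv39h1 (6.82 to 12.1 FPKM) overlapped and changed places in IVF library 2. Kdm3a followed at 5.90 to 7.68 FPKM, a range that overlapped that of Suv39h1, although Suv39h1 was higher in all 4 libraries. Kdm4c (3.42 to 4.23 FPKM), Kdm4a (1.28 to 3.91 FPKM), Suv39h2 (1.84 to 2.41 FPKM) and Kdm4b (1.58 to 1.98 FPKM) each overlapped the next in this order. Kdm4d was lowest in every library and is described apart. The plot of levels by library shows this order, with the writers spread over a wider range than the Kdm4 erasers.

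**Figure D1:**
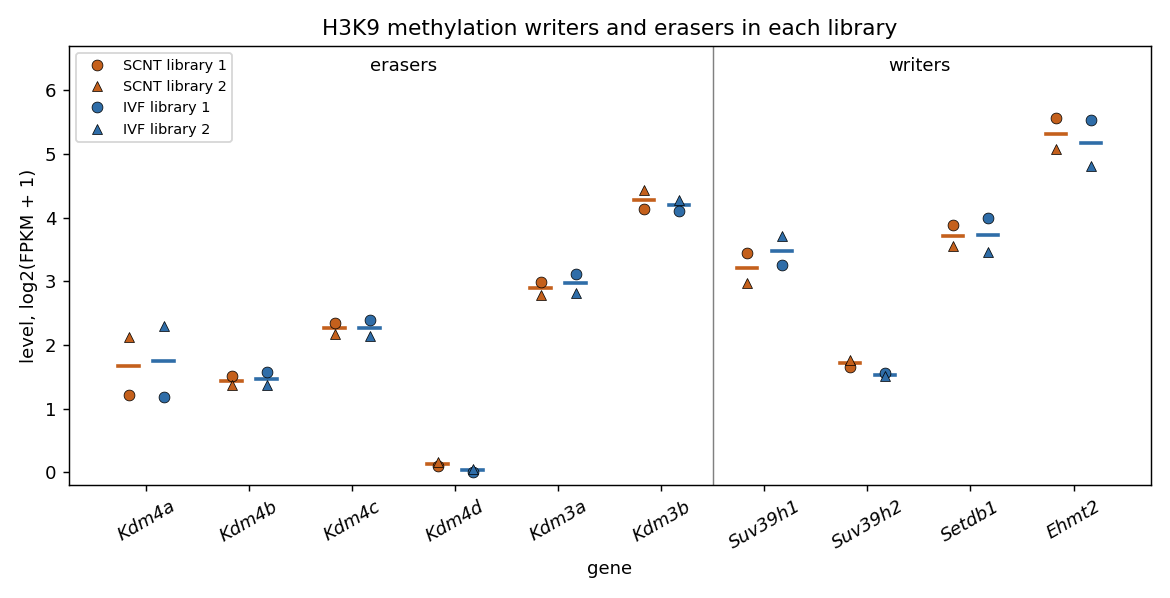
Level of each of the 10 genes, as log2(FPKM + 1), in the SCNT libraries (orange, left) and the IVF libraries (blue, right), with library 1 as a circle, library 2 as a triangle and the group mean as a line. Ehmt2 is highest and Kdm4d lowest in all 4 libraries, and for Kdm4a and Ehmt2 the libraries of a group lie farther apart than the group means.

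No member passed the test between SCNT and IVF. Of the 10 genes, 9 had a mean of at least 1 FPKM over the 4 libraries and were tested with limma on log2(FPKM + 1); Kdm4d was not. None of the 9 had an adjusted p under 0.05, against 0.127% of the 11039 tested genes, and none had an unadjusted p under 0.05, against 7.09% of the tested genes. Their differences, SCNT minus IVF on that log2 scale, ran from -0.28 to 0.18 with a median of -0.02, beside a median of 0.01 over all tested genes. The adjusted p was 0.9996 for each of the 9, and the unadjusted p ran from 0.336 for Suv39h1 to 0.979 for Kdm4c. Both SCNT libraries stood above both IVF libraries for 1 of the 9, Suv39h2, where 18.3% of all tested genes did so, and for none did both stand below, where 15.1% of all tested genes did. A missed threshold with 2 libraries a group does not show equal levels, and the 95% intervals, which differ by gene, are given below with each gene. The sign of the difference turned for 7 of the 9 genes when a single library was left out. That count follows from the gaps between libraries described below and is no separate check. Its share over all tested genes was not counted.

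**Figure D2:**
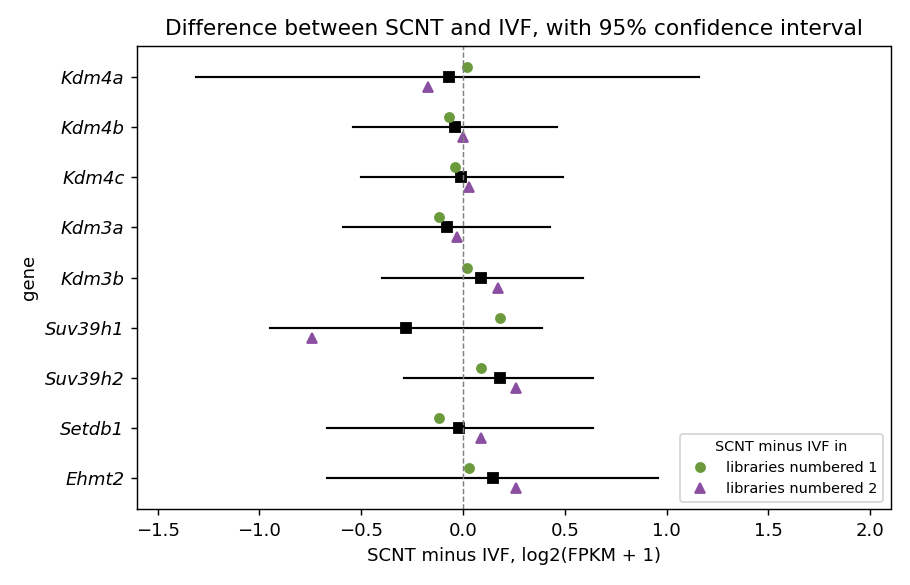
Difference in level between SCNT and IVF on the log2(FPKM + 1) scale for the 9 tested genes: squares are the group difference, lines its 95% confidence interval from limma, circles SCNT minus IVF between the libraries numbered 1 and triangles the same between those numbered 2. All 9 intervals include 0, that of Kdm4a is widest (-1.31 to 1.16), and the triangle of Suv39h1 lies farthest from 0, at -0.74.

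Among the erasers, the Kdm4 family are demethylases of the trimethylated mark. Kdm4a was listed at 1.32 and 3.36 FPKM in SCNT libraries 1 and 2, against 1.28 and 3.91 FPKM in IVF libraries 1 and 2. Both libraries numbered 2 were thus high and both numbered 1 low, and the IVF libraries enclosed the SCNT libraries. The means were 2.34 ± 1.44 FPKM in SCNT and 2.59 ± 1.86 FPKM in IVF (SD, n = 2 each), with a log2 difference of -0.07 ± 0.48 (SE, limma). Its interval of -1.31 to 1.16 is so wide that a difference of 1 on the log2 scale in either direction lies inside it.

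Kdm4c, a demethylase of the same family that is known in mouse embryonic stem cells for its link to self-renewal, was listed at 4.07 and 3.52 FPKM in SCNT, against 4.23 and 3.42 FPKM in IVF. The IVF libraries enclosed the SCNT libraries. The log2 difference was -0.01 ± 0.19, with an interval of -0.50 to 0.49. Kdm4b, the remaining widely expressed member of the family, had 1.84 and 1.58 FPKM in SCNT, against 1.98 and 1.58 FPKM in IVF. The lower value of each group was that of library 2, and the groups overlapped, with a log2 difference of -0.04 ± 0.20 (interval -0.54 to 0.46). Kdm4c was 3.09 times as high as Kdm4a in SCNT library 1 and 3.30 times in IVF library 1, while this ratio was 1.05 in SCNT library 2 and 0.875 in IVF library 2.

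Kdm4d, the member named in the column headers of the SCNT libraries and known as a testis-rich demethylase in mouse, was barely detected. It was listed at 0.0649 and 0.117 FPKM in SCNT, against 0 and 0.0382 FPKM in IVF. Both SCNT values were above both IVF values, as they were for 18.3% of the tested genes, which do not include Kdm4d. All 4 values of Kdm4d were far below the lowest value of Kdm4a (1.28 FPKM) or Kdm4b (1.58 FPKM). Of the 8709 symbols with a mean above 0 and under 1 FPKM, 4094 had a mean at or below that of Kdm4d. What 1 fragment is worth in FPKM was compared between libraries through genes of low value, and was 1.14 times as much in SCNT library 1, 1.02 times in SCNT library 2 and 1.19 times in IVF library 1 as in IVF library 2. These factors rest on the 7.06% (SCNT library 1), 13.4% (SCNT library 2) and 7.54% (IVF library 1) of low genes that lay near the most frequent ratio, so they are approximate. In those units Kdm4d had 1.49 times as many fragments in SCNT library 1 and 3.01 times as many in SCNT library 2 as in IVF library 2. The smallest whole numbers of fragments that give these ratios within 0.1 are 3 and 6 in SCNT, against 0 and 2 in IVF, so the values may rest on very few fragments. Without a filter on low values the log2 difference of Kdm4d was 0.10 ± 0.04 and did not pass (limma adjusted p = 0.753, unadjusted p = 0.0754).

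The window of 250 bases before the start of Kdm4d is shown beside that of Kdm4a because the 2 genes are of the same family, are far apart in level and have similar CpG counts there. Capitals mark each CG dinucleotide, which reads the same on both strands. Both sequences are RefSeq windows of GRCm38.p6, not the authors' build, and run 5′ to 3′ on the gene's own strand, the minus strand: chr9:14500483-14500732 for Kdm4d and chr4:118180044-118180293 for Kdm4a.
Kdm4d: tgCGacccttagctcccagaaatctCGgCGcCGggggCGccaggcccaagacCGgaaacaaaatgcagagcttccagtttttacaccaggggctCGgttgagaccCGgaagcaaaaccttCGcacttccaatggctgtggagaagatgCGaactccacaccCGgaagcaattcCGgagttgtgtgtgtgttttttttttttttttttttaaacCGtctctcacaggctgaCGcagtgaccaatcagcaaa
Kdm4a: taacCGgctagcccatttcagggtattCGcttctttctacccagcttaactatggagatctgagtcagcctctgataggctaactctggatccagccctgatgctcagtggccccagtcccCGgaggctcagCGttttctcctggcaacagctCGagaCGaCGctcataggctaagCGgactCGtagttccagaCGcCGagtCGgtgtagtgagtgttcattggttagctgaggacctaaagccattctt
The Kdm4d window holds 14 CG and the Kdm4a window 12, against a median of 6 over 32851 windows of this length, where 29.4% of these windows hold at least 14 CG and 33.5% hold at least 12. The pair was chosen for this likeness, and nothing is read from it. Windows of 8 of the 10 genes were used here, 13 in all, and they hold from 0 to 36 CG.

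Kdm3a and Kdm3b are demethylases of the mono- and dimethylated mark. Kdm3b was listed at 16.5 and 20.7 FPKM in SCNT, against 16.3 and 18.3 FPKM in IVF. The libraries numbered 2 were the higher ones in both groups, and the groups overlapped. The log2 difference was 0.09 ± 0.19, with an interval of -0.40 to 0.59. Kdm3a had 6.96 and 5.90 FPKM in SCNT, against 7.68 and 6.05 FPKM in IVF, with the libraries numbered 2 lower in both groups. Its log2 difference was -0.08 ± 0.20 (interval -0.59 to 0.43). Of the summed FPKM of the 6 erasers, Kdm3b made up 53.6% and 58.8% in SCNT libraries 1 and 2. In IVF libraries 1 and 2 its share was 51.8% and 54.9%. Kdm3b was thus the highest of these 6 in every library. Kdm1a, an eraser outside these 6, stood above Kdm3b in every library, with 36.2 and 21 FPKM in SCNT, against 35.6 and 25 FPKM in IVF.

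Ehmt2, the catalytic enzyme of the G9a complex, was listed at 46.3 and 32.8 FPKM in SCNT, against 45.4 and 27.2 FPKM in IVF. Both libraries numbered 1 were high and both numbered 2 low, and the groups overlapped. The means were 39.6 ± 9.57 FPKM in SCNT and 36.3 ± 12.9 FPKM in IVF (SD, n = 2 each), and the log2 difference was 0.15 ± 0.32 (interval -0.67 to 0.96). Setdb1, which KRAB zinc finger proteins and Trim28 bring to repeats, had 13.7 and 10.8 FPKM in SCNT, against 15.0 and 10.03 FPKM in IVF. It too was higher in the libraries numbered 1, and the IVF libraries enclosed the SCNT libraries, with a log2 difference of -0.02 ± 0.25 (interval -0.67 to 0.64).

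Suv39h1 and Suv39h2 are paired enzymes of pericentromeric heterochromatin, and Suv39h1 is the only X-linked gene of the 10. The sex of the embryos in each library was not part of the comparison, which limits the reading of any X-linked value. Suv39h1 was listed at 9.84 and 6.82 FPKM in SCNT, against 8.54 and 12.1 FPKM in IVF. The SCNT library numbered 2 was the lowest and the IVF library numbered 2 the highest of the 4, so the groups overlapped and the libraries of a number did not move together. The log2 difference was -0.28 ± 0.26, with an interval of -0.95 to 0.39; between the libraries numbered 1 it was 0.18 and between those numbered 2 it was -0.74. Suv39h2 had 2.13 and 2.41 FPKM in SCNT, against 1.94 and 1.84 FPKM in IVF. Both SCNT libraries were higher, with means of 2.27 ± 0.203 FPKM in SCNT and 1.89 ± 0.0706 FPKM in IVF (SD, n = 2 each), a log2 difference of 0.18 ± 0.18 and an interval of -0.29 to 0.64. Suv39h1 exceeded Suv39h2 in every library, 4.63 and 2.83 times in SCNT and 4.40 and 6.55 times in IVF. In GENCODE vM21, 11.1% of the exon bases of Suv39h1 are shared with the antisense gene Gm14820 and 8.25% of those of Suv39h2 with Dclre1c on the opposite strand. For Setdb1, 5.34% are shared with Gm37500 on the opposite strand. Whether reads were counted by strand is not stated, so such reads cannot be told apart.

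For most of these genes the libraries of a group differed more from each other than the groups did. For 8 of the 9 tested genes, all but Suv39h2, the gap between libraries 2 and 1 exceeded the group difference in both groups; this held for 49% of all tested genes. The level was lower in library 2 of both groups for 5 genes (Kdm4b, Kdm4c, Kdm3a, Setdb1 and Ehmt2) and higher in library 2 of both for 2 (Kdm4a and Kdm3b). These 7 of 9 genes, 77.8%, stand beside 72.9% of all tested genes whose gap had the same sign in both groups, a share near that of the members. Kdm4a had the widest gaps, 0.91 in SCNT and 1.11 in IVF on the log2 scale, and Ehmt2 had gaps of -0.49 in SCNT and -0.72 in IVF. The summed FPKM of the 4 writers was 72.0 and 52.8 in SCNT libraries 1 and 2, against 70.9 and 51.1 in IVF libraries 1 and 2. Ehmt2 made up 64.3% and 62.1% of it in SCNT and 64.0% and 53.2% in IVF; Ehmt2 and Setdb1 were lower in library 2 of both groups, while Suv39h1 was lower there in SCNT alone and Suv39h2 in IVF alone. The summed FPKM of the 6 erasers was 30.8 and 35.2 in SCNT and 31.5 and 33.3 in IVF. The ratio of these sums, writers over erasers, was 2.34 and 1.50 in SCNT and 2.25 and 1.54 in IVF. The libraries numbered 2 are also those with fewer symbols at 0, and the part of depth in these gaps was not tested.

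**Figure D3:**
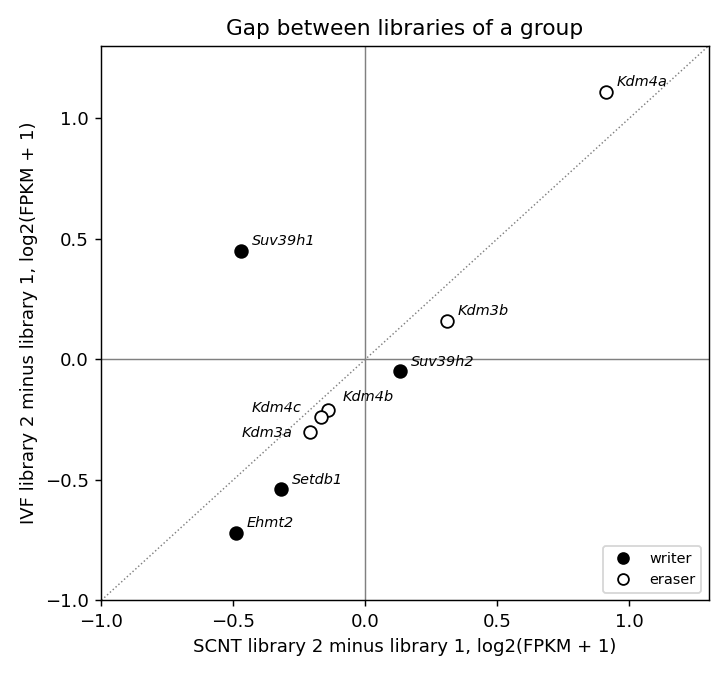
Gap between the libraries of a group, library 2 minus library 1 on the log2(FPKM + 1) scale, in SCNT (horizontal axis) and IVF (vertical axis) for the 9 tested genes, with writers filled and erasers open; the dotted line marks equal gaps. Kdm4a lies far up on the right (0.91 in SCNT, 1.11 in IVF), Ehmt2 far down on the left (-0.49 in SCNT, -0.72 in IVF), and Suv39h1 lies off the line with gaps of opposite sign (-0.47 in SCNT, 0.45 in IVF).

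By likeness of pattern, measured as the root-mean-square distance between centred log2(FPKM + 1) values over the 4 libraries among 35 other tested genes of the pathway, the nearest gene to Kdm4b was Kdm4c (0.0214) and the nearest to Kdm3a was Kdm4c (0.044). Ehmt2 was nearest to Trim28 (0.086), the corepressor that recruits Setdb1, and Setdb1 to Kdm3a (0.0991). By this distance Kdm4a had no close neighbour: the nearest, Cbx1, was at 0.247. The distance counts the size of the gaps between libraries as well as their direction. From library 1 to library 2 Cbx1 rose as Kdm4a did, by 0.48 in SCNT and 0.55 in IVF, but less.

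None of the other 27 tested genes of the H3K9 pathway had an adjusted p under 0.05 with limma, and none had an unadjusted p under 0.05. Of 10 other writers and cofactors 8 were tested, of which 4 had higher and 4 lower estimates, with a median difference of 0.02. Ehmt1, the partner enzyme of Ehmt2, had 12.6 and 11.0 FPKM in SCNT, against 11.1 and 10.9 FPKM in IVF, and a log2 difference of 0.09 ± 0.17. Ehmt2 was 3.69 and 2.99 times as high as Ehmt1 in SCNT and 4.10 and 2.49 times in IVF. The zinc finger gene Zfp644, which encodes a partner of the Ehmt1 and Ehmt2 complex, differed by 0.27 with groups apart (4.31 and 3.58 FPKM in SCNT, 3.16 and 3.03 FPKM in IVF), Wiz, another partner, by -0.20, and Atf7ip, a cofactor of Setdb1, by -0.07.

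Of 6 other erasers 5 were tested, with a median difference of 0.09. Jhdm1d, also called Kdm7a, was lower in both SCNT libraries (1.69 and 1.87 FPKM) than in both IVF libraries (2.22 and 2.03 FPKM), with a log2 difference of -0.17, and Jmjd1c, the third gene of the Kdm3 family, differed by 0.13. Hr was higher in both SCNT libraries (1.16 and 1.01 FPKM) than in both IVF libraries (0.995 and 0.918 FPKM), with a log2 difference of 0.09, and Phf8 differed by 0.14. Of 14 readers and other heterochromatin genes all were tested, with a median of -0.03, 2 genes lower with groups apart and none higher, where 15.1% of all tested genes were lower with groups apart. Mphosph8, whose protein binds H3K9 trimethylation, had 33.4 and 32.3 FPKM in SCNT, against 39.1 and 44.8 FPKM in IVF (log2 difference -0.34 ± 0.17, limma adjusted p = 0.853), and D14Abb1e, also called Tasor, had 7.11 and 5.76 FPKM in SCNT, against 7.36 and 8.26 FPKM in IVF (-0.25 ± 0.19, adjusted p = 0.964). Pphln1, whose protein joins the Mphosph8 and Tasor proteins in the HUSH silencing complex, named here after its values were seen, differed by 0.01. Morc2a differed by -0.18 and Lrwd1 by 0.21.

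**Figure D4:**
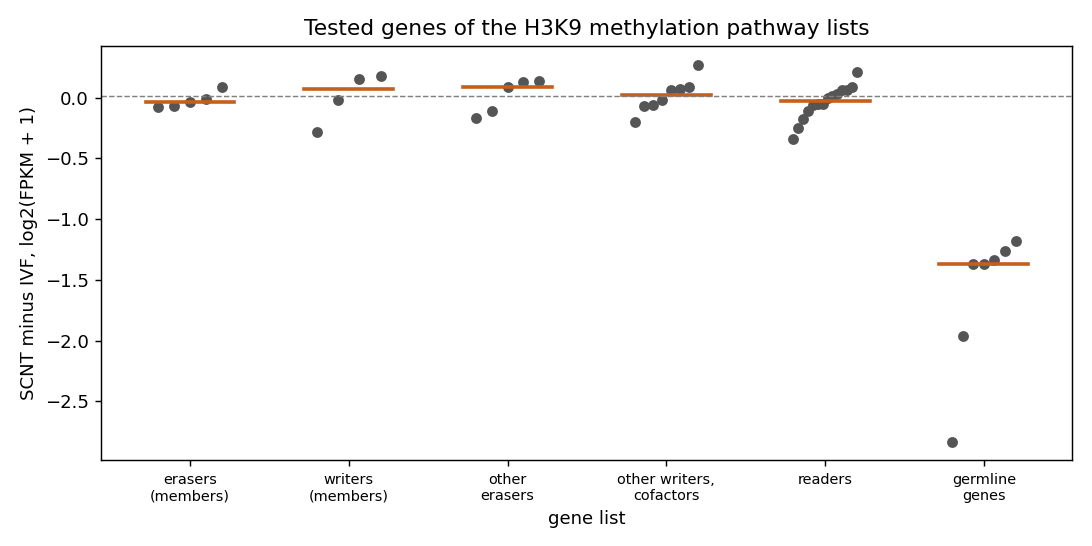
Difference between SCNT and IVF on the log2(FPKM + 1) scale for each tested gene (points) of 6 gene lists, with each list's median (orange line) and the median of all tested genes (dashed line, 0.01). Member and other pathway genes lie between -0.34 and 0.27, while the 7 tested germline genes lie between -2.83 and -1.18; some germline genes reached the mean of 1 FPKM only through their IVF values.

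Germline genes, led by the Magea genes that Ehmt2 is known to silence in mouse embryonic stem cells, were listed lower in SCNT. Of 14 such genes, 10 had both SCNT values below both IVF values, none had both above and 4 overlapped; among symbols above 0 in at least 1 library, 14.6% stood lower in this way. Magea5 had 1.36 and 0.447 FPKM in SCNT, against 13.4 and 11.0 FPKM in IVF (log2 difference -2.83 ± 0.29, limma adjusted p = 0.102). Mael, a gene of transposon silencing in germ cells, had 2.22 and 1.81 FPKM in SCNT, against 6.34 and 7.18 FPKM in IVF (-1.37 ± 0.19, adjusted p = 0.203). Dazl, a germ cell RNA-binding protein gene, had 0.456 and 0.380 FPKM in SCNT, against 2.22 and 2.56 FPKM in IVF (-1.26 ± 0.19, adjusted p = 0.231), and Magea8 differed by -1.96. Only 7 of the 14 reached a mean of 1 FPKM, some of them through IVF alone, so these are descriptions. The Magea genes of the list and Taf7l are X-linked, while Mael is on chromosome 1 and Dazl on chromosome 17. The sex of the embryos in each library was not part of the comparison, which limits the reading of the X-linked values. Magea genes are near-identical copies whose shared reads may have been divided between them. The list was drawn up with earlier results of these data known, among them the direction of the Magea genes. The count of 10 beside 14.6% is therefore a description and no test. None of the 7 tested germline genes had an adjusted p under 0.05 with limma. The same held for the tested genes that write, erase or read the mark.

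Markers of the cell types in a blastocyst were present, as the label says. The summed FPKM of 8 trophectoderm markers was 6004 and 3934 in SCNT, against 4401 and 3604 in IVF. Most of that sum came from 2 keratin genes whose groups overlapped, and Gata3 came next. Krt18 had 3979 and 2257 FPKM in SCNT, against 2647 and 1956 FPKM in IVF. Krt8 had 1710 and 1427 FPKM in SCNT, against 1489 and 1428 FPKM in IVF. For 7 inner cell mass markers, led by Nanog, the sum was 241 and 235 in SCNT, against 201 and 227 in IVF. Of the trophectoderm list 3 of 8 stood higher with groups apart, of the inner cell mass list 2 of 7 and of 5 primitive endoderm markers 2. Of all tested genes 18.3% did so, and none of these markers passed limma's test at an adjusted p under 0.05. The 3 of the trophectoderm list, named here after their values were seen, were Cdx2, Eomes and Elf5. Cdx2 had 36.6 and 29.5 FPKM in SCNT, against 19.96 and 21.7 FPKM in IVF. Eomes had 43.5 and 24.4 FPKM in SCNT, against 18.8 and 14.2 FPKM in IVF. Elf5 had 17.9 and 9.5 FPKM in SCNT, against 3.23 and 3.88 FPKM in IVF. The rest of that list overlapped. At an unadjusted p under 0.05 with limma, 3 of 8 trophectoderm, 1 of 7 inner cell mass and 1 of 4 tested primitive endoderm markers stood higher. Of the 11039 tested genes, 469 stood higher in this way, and 7.09% had such a p in either direction. The sums for primitive endoderm were 127 and 99.6 in SCNT, against 154 and 99.0 in IVF. Fibroblast markers, the donor cell type of the SCNT embryos, summed over 10 genes to 6.48 and 1.41 FPKM in SCNT, against 3.57 and 1.79 FPKM in IVF. Col1a1 had the highest mean, with 3.38 and 0.193 FPKM in SCNT and 0.730 and 0.0846 FPKM in IVF, and its groups overlapped. Twist1 (0.521 and 0.658 FPKM in SCNT, 1.57 and 1.1 FPKM in IVF) was lower in both SCNT libraries. So was Thy1 (0.374 and 0.133 FPKM in SCNT, 0.578 and 0.386 FPKM in IVF). Pdgfrb and Prrx1 were higher in both SCNT libraries, and the other markers of the list overlapped. Cumulus and granulosa markers summed to between 1.13 and 1.82 FPKM over 9 genes, with Amh and Ptx3 at 0 in all 4 libraries, and oocyte markers to between 0.997 and 3.77 FPKM over 7 genes. In such whole embryos, fewer cells of a type and less RNA per cell cannot be told apart, and the part of cell mixture in the members' values was not tested.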

How the data were processed

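Per the labels' protocols, whole embryos were pooled and lysed, and their cDNA was amplified (SMARTer Ultra Low Input), sheared and made into libraries (NEBNext Ultra DNA). Such amplification makes low values noisy. The FPKM values were deposited by the authors, 1 per gene symbol and library; the submitters' processing notes name Cufflinks 2.2.1, Bowtie2 2.1.0, TopHat2 2.0.14 and the mm9 build. The annotation, use of strand, filters and scaling between libraries are not given there or in the labels, and the unit is inferred from the tools and the values. The absolute depth is unknown, so no counting error is given.

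Libraries were grouped by title. Genes with a mean of at least 1 FPKM (11039) were tested in R 4.3.3 on log2(FPKM + 1) values by limma 3.58.1, two-sided, on group alone with a mean-variance trend, and Benjamini-Hochberg adjustment over all tested genes with a threshold of 0.05. A difference on this scale understates the change of low genes. Code was tested on simulated data. Alternatives were pseudocounts of 0.1 and 5, no filter or a mean of 5 FPKM, rescaling to equal totals, quantile normalization, no trend, each library left out, and the replicate number as a block. What 1 fragment is worth was taken from the most frequent ratio among genes under 0.5 FPKM. The members, lists and tests were chosen with earlier results of these data known. Named genes are all members, up to 4 tested genes of each pathway list by unadjusted p, and up to 3 of the highest of each marker list; others are marked or serve a comparison. Of the marker lists not all 3 are printed. Chromosomes and windows are from RefSeq (GRCm38.p6).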

Additional observations from a re-analysis of the deposited data

How the results depend on the processing

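The number of members called by limma at an adjusted p under 0.05, and the number with an unadjusted p under 0.05, was 0 in all 12 alternatives, and the smallest adjusted p of any tested member was 0.573 (Ehmt2, with the replicate block). The members' median difference ran from -0.03 to -0.01 in the alternatives that kept all libraries, and from -0.13 to 0.07 when 1 was left out. The number of members whose groups did not overlap was 1 in the main analysis, where the groups of 33.4% of all tested genes did not overlap. This number was 0 with the filter at 5 FPKM, which removed Suv39h2, and 2 without a filter, which added Kdm4d. Leaving out a library gave from 2 to 7, since 1 library against 2 overlaps less often by construction. The share over all tested genes is not given for these alternatives, so nothing is read from their counts. The replicate block gives no such count.

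No tested member changed direction in the 8 alternatives that kept all libraries, of which the filter at 5 FPKM tested 5 members only (not Kdm4a, Kdm4b, Kdm4c or Suv39h2); Kdm4d was tested only without a filter. On leaving out a library, Suv39h1 and Suv39h2 kept theirs (-0.51 to -0.04 and 0.11 to 0.24), and the other 7 did not: Kdm4a ran from -0.63 to 0.48, Kdm4b from -0.14 to 0.07, Kdm4c from -0.13 to 0.12, Kdm3a from -0.23 to 0.07, Kdm3b from -0.06 to 0.25, Setdb1 from -0.29 to 0.25 and Ehmt2 from -0.22 to 0.51. Without IVF library 1 the differences were 0.07 for Kdm3a, 0.07 for Kdm4b, 0.12 for Kdm4c and 0.25 for Setdb1, and without SCNT library 2 they were 0.03, 0.03, 0.08 and 0.15, with -0.06 for Kdm3b. Without IVF library 2 they were 0.48 for Kdm4a and -0.22 for Ehmt2, and without SCNT library 1 they were 0.38 and -0.10. In these fits the lone library of a group is assumed to vary like the other group. The labels share replicate numbers but do not say that they mark a pairing; across the tested genes the gaps between libraries 2 and 1 in SCNT and in IVF correlated at r = 0.31 (genes are not independent replicates). With the replicate block 20 genes were called in all, against 14 without it, none of them a member, and 1832 had an unadjusted p under 0.05, against 783. Having 2 libraries a group and no known depth limits every value here.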
